A study of Mus musculus with 6 samples.

Results

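The 10 genes described here are Slc2a3, Hk1, Pfkm, Pfkp, Pfkfb3, Pkm, Ldha, Ldhb, Slc16a1 and Slc16a7. They were chosen by symbol as genes of glucose uptake, glycolysis and the exchange of lactate, and all 10 were found among the 32067 features of the deposited hippocampal count table. The OVX+RJ group held 3 hippocampus libraries from ovariectomised wild-type female C57BL/6J mice fed a diet with 1% royal jelly, and the OVX group held 3 from ovariectomised mice of the same strain, sex and genotype fed the control diet. Both groups lacked their ovaries, the diets ran from 8 weeks of age until tissue was taken at 17 weeks, and each library is labelled as a biological replicate. No group with intact ovaries was analysed here, so each difference below is one between 2 diet groups, both ovariectomised.

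Neurons and glia take up glucose through facilitative transporters and split it by glycolysis to pyruvate. Hexokinase traps the sugar, phosphofructokinase makes the committed step, and pyruvate kinase makes the last one. Lactate dehydrogenase interconverts pyruvate and lactate, and proton-coupled monocarboxylate transporters carry lactate across membranes. In the brain, astrocytes and oligodendrocytes are thought to export lactate through the transporter MCT1, the product of Slc16a1, and neurons to import it through MCT2, the product of Slc16a7. The A subunit of lactate dehydrogenase (Ldha) is the more abundant one in tissues that make lactate, and the B subunit (Ldhb) in tissues that burn it. The comparison asks whether a royal jelly diet alters the RNA of these genes in hippocampus.

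Libraries held between 34718596.5 and 58163785 deposited counts. The values below are in CPM, the count of a gene scaled by the library's total over all rows of the table, and none of the members had fewer than 418 counts in any library. Markers of neurons, astrocytes, oligodendrocytes, microglia and endothelium were present in every library, and no marker of the 11 lists used was at 0 throughout. The 7 choroid plexus markers all had positive log2 fold changes (median 0.72, 3 of them at an unadjusted edgeR p under 0.05), with sums of 26.7 to 54.4 CPM in OVX+RJ and 25.5 to 36.0 CPM in OVX. The 7 dentate granule cell markers were all negative (median -0.23, 3 at an unadjusted p under 0.05), with sums of 286 to 438 CPM in OVX+RJ and 345 to 469.6 CPM in OVX. Of 7 pericyte and smooth muscle markers 6 were negative (median -0.22, 2 at an unadjusted p under 0.05), and their sums did not overlap, at 156 to 164 CPM in OVX+RJ and 175 to 184 CPM in OVX. In the other 8 lists the sums overlapped, and the medians lay between -0.15 for endothelium and 0.091 for oligodendrocytes. The part of these cells in the members' values was not tested. Hippocampus was sequenced as bulk tissue, so a larger share of cells of one type and more RNA per cell cannot be told apart. OVX+RJ 1 stood slightly apart from the other libraries, with a mean Pearson correlation of 0.983 with the other 5, against 0.986 to 0.987 for the rest.

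The sequence before the transcription start is shown for Slc16a1, the member with the lowest p between the diets, and for the Ldha and Ldhb pair, of which 1 Ldha window holds a motif that the other Ldha window and the Ldhb window lack. Ldha is a known target of the hypoxia-inducible factor HIF-1, which binds the core ACGTG. Each line holds the 250 bases before a start, 5′ to 3′ on the gene's strand, from RefSeq on build GRCm38.p6, with capitals marking ACGTG on either strand. The windows are Slc16a1 at chr3:104638414-104638663 (plus strand), the more upstream of the Ldha starts at chr7:46845554-46845803 (plus strand) and Ldhb at chr6:142507958-142508207 (minus strand).
Slc16a1: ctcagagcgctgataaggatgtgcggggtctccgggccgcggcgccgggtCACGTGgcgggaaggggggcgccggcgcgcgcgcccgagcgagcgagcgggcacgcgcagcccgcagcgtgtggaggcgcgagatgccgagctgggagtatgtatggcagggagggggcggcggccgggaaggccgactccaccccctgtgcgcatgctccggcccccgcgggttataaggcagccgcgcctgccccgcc
Ldha: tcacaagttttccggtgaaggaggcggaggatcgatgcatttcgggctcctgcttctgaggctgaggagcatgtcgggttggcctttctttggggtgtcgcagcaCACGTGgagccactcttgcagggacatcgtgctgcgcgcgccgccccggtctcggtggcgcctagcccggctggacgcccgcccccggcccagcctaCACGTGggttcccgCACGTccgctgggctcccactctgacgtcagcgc
Ldhb: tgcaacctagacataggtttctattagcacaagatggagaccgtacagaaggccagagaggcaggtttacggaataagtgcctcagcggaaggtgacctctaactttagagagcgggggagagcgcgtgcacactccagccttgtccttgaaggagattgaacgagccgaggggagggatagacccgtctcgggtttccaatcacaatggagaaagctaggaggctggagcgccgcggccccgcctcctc
Counted on each strand, ACGTG occurred 5 times in the Ldha window, 2 times in the Slc16a1 window and 0 times in the Ldhb window. The second Ldha window, at chr7:46846832-46847081, held ACGTG 0 times, as the Ldhb window did. A CACGTG, the palindromic E-box, holds the core on both strands and so counts 2 times. It occurred 2 times before Ldha and 1 time before Slc16a1, and 6.02% of all windows held it. The Ldha window also held TGACGTCA, the cAMP response element, 1 time, a motif present in 1.55% of all 32851 windows. The table gave 15 windows for 8 of the members, and 7 of these windows, from 5 members, held ACGTG, against 16.6% of all windows. The windows of the members named here were rich in G and C, at 76.4% for Slc16a1, 67.2% for Ldha and 56.4% for Ldhb, and the shares were not matched for this. A match describes letters only. No window is shown for Slc2a3 and Slc16a7.

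None of the 10 members passed edgeR's quasi-likelihood test between the diets at a threshold of 0.05, with p adjusted by Benjamini-Hochberg over all 18629 genes tested. All 10 members passed the filter on low counts. The same test called 0 genes higher and 0 lower in OVX+RJ over all genes, a background of 0% in each direction. At an unadjusted p under 0.05 there was 1 member, Slc16a1, against 4.05% of all genes, or 754. DESeq2 called 13 genes, 0.079% of those it adjusted, and none of them was a member. The members split into 6 with a positive and 4 with a negative log2 fold change (OVX+RJ over OVX), with a median of 0.019, beside 9237 positive, 9392 negative and a median of -0.0015 over all genes tested. With 1 library left out the members' median ran from -0.012 without OVX+RJ 1 to 0.042 without OVX+RJ 2, so its sign turned. For 8 members the absolute log2 fold change was under 0.1. The groups did not overlap at 1 member, Slc16a1, where OVX+RJ was higher. Over all genes the groups did not overlap at 10.5%, with OVX+RJ higher at 4.53% and lower at 5.95%, so 1 of 10 is a share near the background.

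**Figure D1:**
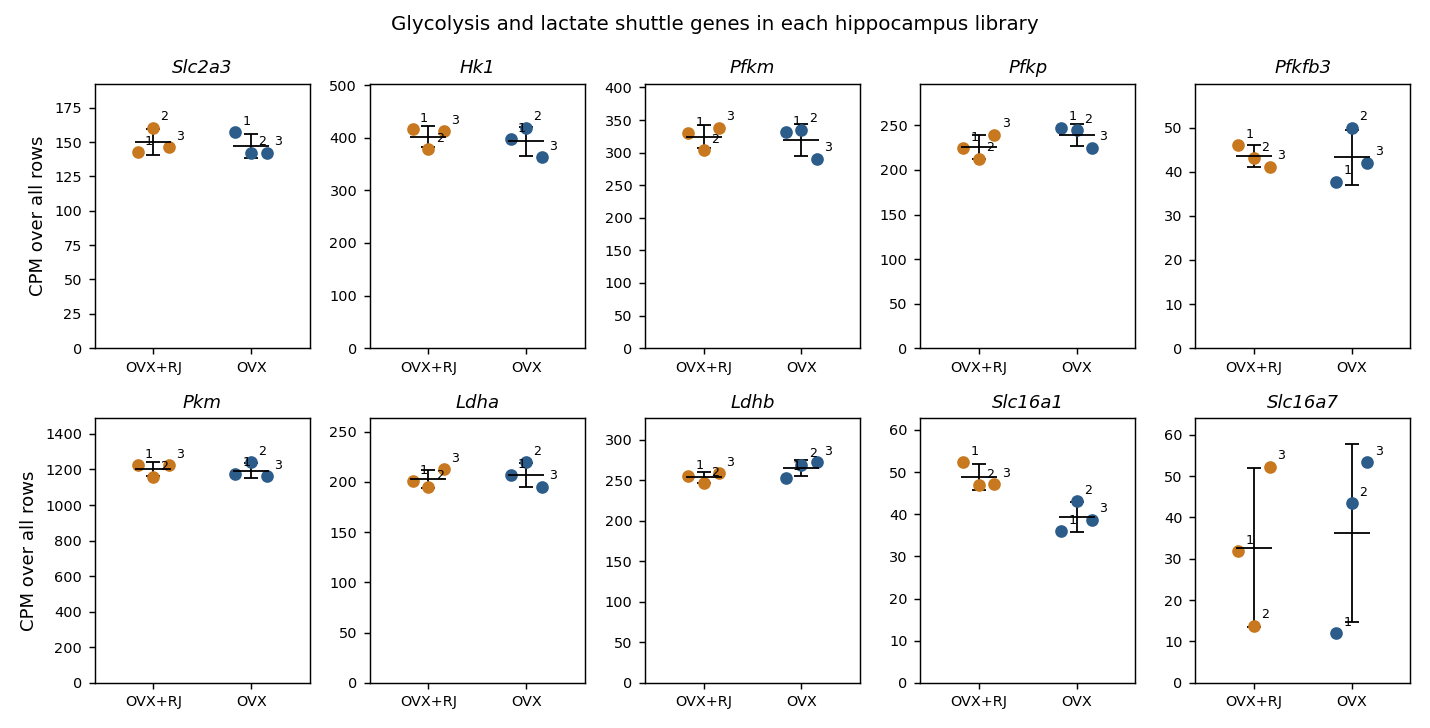
CPM over all rows of each member in each of the 6 libraries, with OVX+RJ left and OVX right. Points are libraries numbered by replicate, and the bar is the mean with its SD (n = 3). Slc16a1 lies at 46.9 to 52.3 CPM in OVX+RJ and at 36.0 to 43.1 CPM in OVX, and Slc16a7 spans 12.0 to 53.3 CPM.

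Of the members, the lactate transporter gene Slc16a1 had the largest positive difference. It was at 52.3, 46.9 and 47.2 CPM in OVX+RJ 1, 2 and 3, against 36.0, 43.1 and 38.7 CPM in OVX 1, 2 and 3. Every OVX+RJ library lay above every OVX library, with the smallest gap between OVX+RJ 2 and OVX 2. Its mean level was 48.8 ± 3.03 CPM in OVX+RJ, compared with 39.3 ± 3.60 CPM in OVX (SD, n = 3 in each group). The log2 fold change was 0.32 (SE 0.091), or 1.25-fold. Its unadjusted edgeR p was 0.0040, rank 42 of 18629, and the adjusted p was 0.986. The 95% interval of the difference, from limma on log2 CPM, ran from 0.12 to 0.53.

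The Slc16a1 difference kept its sign whichever library was left out. It was lowest without OVX+RJ 1, at 0.26, and highest without OVX 2, at 0.399. Its adjusted p over the alternatives tried lay between 0.445 (DESeq2) and 0.999.

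MCT1 is found in endothelium, astrocytes and oligodendrocytes, so the markers of these cells are given beside it. The summed level of 8 endothelial markers was 151 to 185 CPM in OVX+RJ, compared with 185 to 187 CPM in OVX, with 6 of the 8 log2 fold changes negative. The 8 astrocyte markers summed to 4461 to 4682 CPM in OVX+RJ, compared with 4376 to 4755 CPM in OVX, with 6 negative. The 8 oligodendrocyte markers summed to 3590 to 4818 CPM in OVX+RJ, compared with 2973 to 4912 CPM in OVX, with all 8 positive and a median log2 fold change of 0.091. OVX 1, the lowest library for Slc16a1, was also the lowest for the oligodendrocyte markers, and OVX+RJ 1, the highest for Slc16a1, had the second lowest sum of them. The part of these cells in the Slc16a1 values was not tested.

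Slc16a7, which encodes the high-affinity transporter MCT2, varied over a wide range within each diet. It was at 31.9, 13.8 and 52.3 CPM in OVX+RJ 1, 2 and 3, against 12.0, 43.4 and 53.3 CPM in OVX 1, 2 and 3. Each group held both a low library (OVX+RJ 2 and OVX 1) and a high one (OVX+RJ 3 and OVX 3), so the groups overlapped. OVX+RJ 2 held 544 counts of it and OVX 1 held 418. The sources used here do not say how reads that align to several places were counted, and the part of the counting in this spread was not tested. Its mean level was 32.7 ± 19.2 CPM in OVX+RJ, compared with 36.2 ± 21.5 CPM in OVX, and the log2 fold change was -0.15 (SE 0.53, adjusted p = 0.988 by edgeR). The 95% interval came from limma on log2 CPM, whose estimate differs from that of edgeR, and ran from -1.24 to 1.08.

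The SD of log2 CPM over the 6 libraries was 0.96 for Slc16a7, rank 331 of 18629 tested genes from the top. The highest library was 4.43 times the lowest, against 1.45 times for Slc16a1 and 1.07 to 1.32 times for the other 8 members. The sign of the Slc16a7 difference turned when OVX+RJ 2, OVX 2 or OVX 3 was left out, and its value ran from -0.65 without OVX+RJ 3 to 0.24 without OVX 3. OVX 1 and OVX+RJ 2 were the low libraries. OVX 1 was also lowest for the summed oligodendrocyte markers, at 2973 CPM, while OVX+RJ 2 held 4231 CPM of them, within a range up to 4912 CPM. The 9 neuron markers summed to 7724 CPM in OVX 1 and 7790 CPM in OVX+RJ 2. They summed to 7717 CPM in OVX 3, the highest library for Slc16a7, and to at most 8128 CPM in any library. The part of these cells in the Slc16a7 values was not tested. Gm45604 and Gm47862, annotated on the opposite strand across Slc16a7, were at or below 0.234 CPM in every library.

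**Figure D2:**
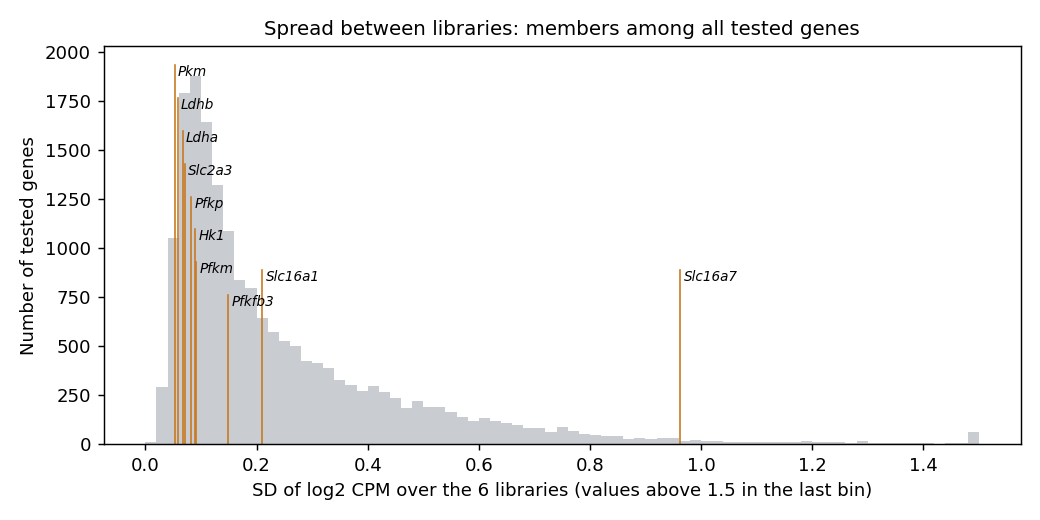
Histogram of the SD of log2 CPM over the 6 libraries for all 18629 tested genes, with orange lines at the members. Slc16a7 lies at 0.96 and Slc16a1 at 0.21, and 7 members lie among the 25% of genes with the lowest SD.

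The glucose transporter gene Slc2a3 encodes GLUT3, the main carrier of neurons. It was at 143, 161 and 146 CPM in OVX+RJ 1, 2 and 3, against 158, 142 and 142 CPM in OVX 1, 2 and 3. The groups overlapped, with the 2 highest values in different diets. The log2 fold change was 0.034 (SE 0.065), with a 95% interval from -0.11 to 0.18. A pseudogene on the same strand within the Slc2a3 locus, Gm4482, stood below 1 CPM in each library.

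Slc2a1, the GLUT1 gene of the blood-brain barrier and astrocytes, is no member, but it bears on the balance of carriers. It was at 66.0, 52.8 and 57.4 CPM in OVX+RJ, against 77.1, 81.1 and 68.5 CPM in OVX, and its groups did not overlap. Its log2 fold change was -0.35 (SE 0.098, adjusted p = 0.986 by edgeR). Of the vascular markers given above, those of pericytes and smooth muscle had lower sums in OVX+RJ without overlap, and those of endothelium had 6 of 8 log2 fold changes negative, a median of -0.15 and overlapping sums. Their part in the Slc2a1 values was not tested. Per kb of exon, Slc2a3 made up 50.9%, 59.3% and 54.9% of the summed level of Slc2a1, Slc2a3 and Slc2a4 in OVX+RJ 1, 2 and 3, against 49.7%, 45.8% and 49.9% in OVX 1, 2 and 3. This share was not tested. Slc2a3 itself stood at 150 ± 9.47 CPM in OVX+RJ, compared with 147 ± 8.77 CPM in OVX.

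Hk1 encodes the main hexokinase of brain, which binds the outer membrane of mitochondria. It was at 416, 379 and 412 CPM in OVX+RJ 1, 2 and 3, against 397, 419 and 364 CPM in OVX 1, 2 and 3, and the log2 fold change was 0.044 (SE 0.067). The groups overlapped, and OVX 2 and OVX 3 were the extremes. Per kb of exon, Hk1 made up 94.98 ± 0.224% of the hexokinase RNA of Hk1, Hk2, Hk3 and Hkdc1 in OVX+RJ and 95.4 ± 0.415% in OVX. Hk1os, an antisense RNA across the Hk1 locus, lay between 0.0254 and 0.585 CPM. Whether reads of overlapping genes on opposite strands were counted apart is not known, since no source used here gives the strand setting. Without OVX+RJ 1 the log2 fold change of Hk1 was 0.0076.

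The phosphofructokinase genes Pfkm (the muscle type) and Pfkp (the platelet type) had small differences of opposite sign. Pfkm was at 330, 304 and 338 CPM in OVX+RJ 1, 2 and 3, against 331, 335 and 291 CPM in OVX 1, 2 and 3, a log2 fold change of 0.034 (SE 0.069). Pfkp was at 224, 213 and 240 CPM in OVX+RJ, against 247, 245 and 225 CPM in OVX, and the log2 fold change was -0.072 (SE 0.064). For each gene alone the groups overlapped.

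The ratio of Pfkm to Pfkp within a library needs no scaling between libraries. On the log2 scale it was 0.56, 0.52 and 0.50 in OVX+RJ 1, 2 and 3, against 0.42, 0.45 and 0.37 in OVX 1, 2 and 3. The lowest OVX+RJ library lay above the highest OVX library, and the means differed by 0.11. A two-sided exact permutation test gave p = 0.1, the smallest that 3 against 3 allow, and 0.3 after Benjamini-Hochberg adjustment over the 3 ratios compared. The difference lay between 0.085 and 0.13 with each library left out in turn. This ratio leaves out Pfkl, another phosphofructokinase gene. Per kb of exon, Pfkl made up 21.6% to 24.5% of the RNA of Pfkm, Pfkp and Pfkl in OVX+RJ and 21.5% to 24.6% in OVX. Pfkm made up 64.3% to 66.6% of it in OVX+RJ and 63.2% to 66.2% in OVX. Pfkp made up 11.1% to 11.8% in OVX+RJ and 11.7% to 12.3% in OVX, so the groups overlapped for each share. These shares were not tested. Pfkm overlaps Senp1 and Pfkp overlaps Pitrm1 on the opposite strand. Senp1 was at 13.3 to 16.1 CPM in OVX+RJ, compared with 13.6 to 15.8 CPM in OVX, and Pitrm1 was at 27.4 to 30.3 CPM in OVX+RJ, compared with 30.9 to 36.1 CPM in OVX. The part of any shared reads was not tested.

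Pfkfb3 encodes the enzyme that makes fructose 2,6-bisphosphate, an activator of phosphofructokinase. It was at 46.1, 43.2 and 41.2 CPM in OVX+RJ 1, 2 and 3, against 37.8, 49.98 and 42.1 CPM in OVX 1, 2 and 3. The OVX libraries held both the lowest and the highest value. The log2 fold change was 0.016 (SE 0.11), and it turned negative without OVX+RJ 1, at -0.041, and without OVX 1, at -0.076. Per kb of exon, Pfkfb3 made up 41.4 ± 1.04% of the RNA of the 4 Pfkfb genes in OVX+RJ and 40.4 ± 3.98% in OVX, and Pfkfb2 made up 45.1 ± 1.18% in OVX+RJ and 45.6 ± 3.09% in OVX.

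Pkm, the pyruvate kinase gene whose alternative exons give the M1 and M2 enzymes, was the most abundant member. It was at 1224, 1157 and 1223 CPM in OVX+RJ 1, 2 and 3, against 1176, 1239 and 1162 CPM in OVX 1, 2 and 3. The groups overlapped, and the highest library was 1.07 times the lowest. The log2 fold change was 0.022 (SE 0.054), with a 95% interval from -0.097 to 0.14. Without OVX+RJ 1 it was -0.0027. Counts per gene do not part the M1 from the M2 form. Gm49759, a feature annotated on the same strand within Pkm, stood at 14.8 to 20.3 CPM.

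**Figure D3:**
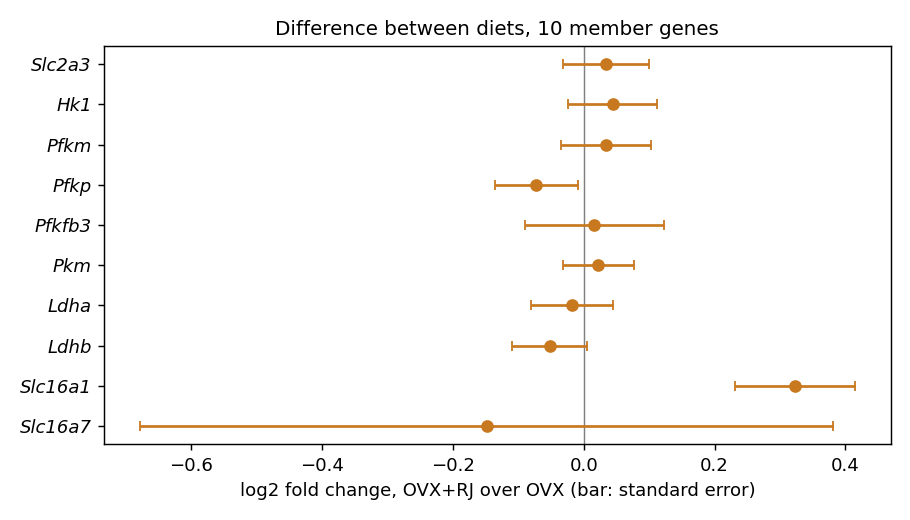
Log2 fold change, OVX+RJ over OVX, of each member from edgeR, with bars of 1 standard error from limma. Slc16a1 lies at 0.32, Slc16a7 at -0.15 with an SE of 0.53, and the other 8 members lie between -0.072 and 0.044.

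The 2 lactate dehydrogenase genes had small negative differences. Ldha was at 201, 195 and 213 CPM in OVX+RJ 1, 2 and 3, against 207, 219 and 195 CPM in OVX 1, 2 and 3, a log2 fold change of -0.018 (SE 0.063) with a 95% interval from -0.15 to 0.12. Ldhb was at 255, 246 and 259 CPM in OVX+RJ, against 253, 269 and 272 CPM in OVX, and the log2 fold change was -0.052 (SE 0.057) with a 95% interval from -0.18 to 0.074. Both pairs of groups overlapped. The Ldhb difference was negative whichever library was left out, between -0.088 and -0.025, while that of Ldha was positive without OVX+RJ 2 and without OVX 2, at 0.016 and 0.028.

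The log2 ratio of Ldha to Ldhb counts was -0.34, -0.34 and -0.28 in OVX+RJ 1, 2 and 3, against -0.29, -0.30 and -0.48 in OVX 1, 2 and 3. OVX 3 was the lowest and the other 5 libraries lay close together. The difference of means was 0.034, with a two-sided exact permutation p of 0.8 and the same value after adjustment over the 3 ratios. Without OVX 3 it was -0.027. Per kb of exon, Ldha made up 27.5 ± 0.452% of the RNA of both subunits in OVX+RJ and 27.1 ± 1.44% in OVX. The size of this share depends on the annotated exon lengths, 3.31 kb for Ldha and 1.57 kb for Ldhb. Ldhb was the more abundant subunit RNA in every library, by counts as well as per kb. The named pseudogenes Ldha-ps, Ldha-ps2 and Ldhb-ps were at or below 0.722 CPM.

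For the transporters the log2 ratio of Slc16a1 to Slc16a7 counts was 0.71, 1.76 and -0.15 in OVX+RJ 1, 2 and 3, against 1.58, -0.0075 and -0.46 in OVX 1, 2 and 3. The groups overlapped, and Slc16a7 had the wider range of the pair. The difference of means was 0.40, with a two-sided exact permutation p of 0.6 and 0.8 after adjustment over the 3 ratios. It was -0.089 without OVX+RJ 2, -0.011 without OVX 3 and 1.01 without OVX 1.

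Levels are compared between genes as CPM per kb of annotated exon, over the 6 libraries. Pkm stood highest at 239 ± 7.21 CPM per kb, followed by Ldhb at 165 ± 6.24, Pfkm at 96.3 ± 5.80, Ldha at 61.9 ± 2.94 and Hk1 at 46.6 ± 2.63. Below them came Slc2a3 at 20.5 ± 1.14, Pfkp at 17.3 ± 1.02, Slc16a1 at 9.95 ± 1.35, Pfkfb3 at 5.74 ± 0.559 and Slc16a7 at 2.91 ± 1.55 CPM per kb (SD, n = 6). No member's range over the libraries overlapped that of its neighbour in this order. The lengths are unions of all annotated exons, from 1.57 kb for Ldhb to 13.4 kb for Pfkp, and a gene whose long forms are little used in hippocampus is placed too low. Another proton-coupled carrier gene, Slc16a3 (MCT4), was at 0.285 CPM per kb on average, below both transporter members.

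**Figure D4:**
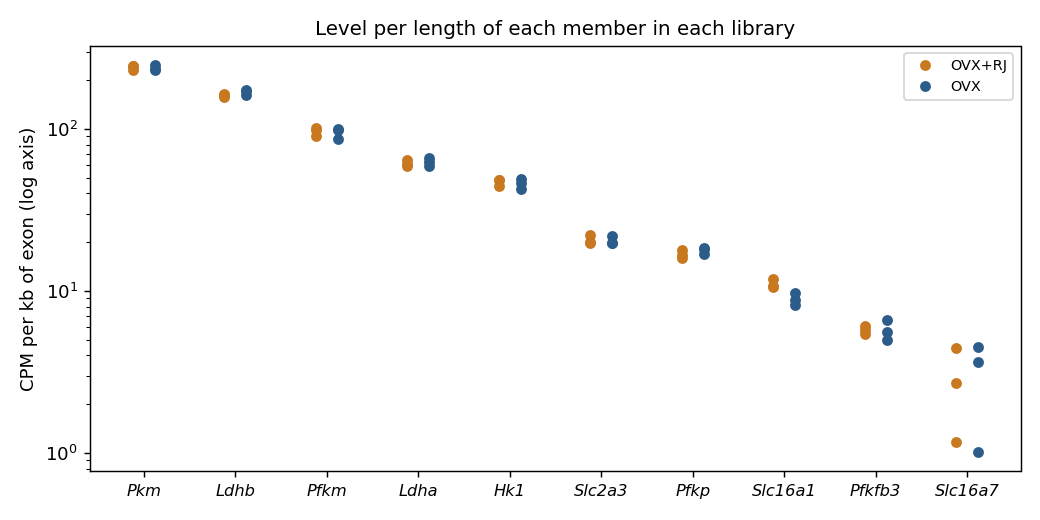
Level of each member in CPM per kb of annotated exon (log axis), with the 3 OVX+RJ libraries left and the 3 OVX libraries right of each position. The order runs from Pkm at 239 to Slc16a7 at 2.91 CPM per kb on average.

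Across libraries no single order was shared by all the members. For Hk1, Pfkm, Pkm and Ldha, however, OVX 3 and OVX+RJ 2 lay below every other library. OVX 2 was the highest library for 4 members (Hk1, Pfkfb3, Pkm and Ldha), and OVX 3 was the lowest for 4 (Slc2a3, Hk1, Pfkm and Ldha). OVX+RJ 2 was the lowest for Pfkp, Pkm and Ldhb and the highest for Slc2a3. By the root mean square difference between log2 CPM profiles over the 6 libraries, each centred on its own mean, the gene most like Slc16a1 was Riox1, at a difference of 0.047. Riox1 was at 12.1, 11.9 and 11.5 CPM in OVX+RJ, against 8.32, 10.3 and 9.47 CPM in OVX. The gene most like Pfkfb3 was Pcyox1l, at a difference of 0.018.

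The other genes of glucose and pyruvate metabolism were taken as 9 lists holding 117 symbols, of which 109 were tested. None was called higher or lower by edgeR over all genes, 63 log2 fold changes were positive and 46 negative, and the median was 0.016. At an unadjusted p under 0.05 there were 5 higher and 1 lower, against 2.14% and 1.91% of all genes. The groups did not overlap at 6 of the 109 with OVX+RJ higher and 4 with it lower, against 4.53% and 5.95% of all genes.

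The other enzymes of glycolysis itself showed no common direction. Of 18 tested, 12 were positive and 6 negative, with a median of 0.013 and none at an unadjusted p under 0.05. Those with the lowest p were Bpgm, which makes 2,3-bisphosphoglycerate, at 50.7 ± 2.62 CPM in OVX+RJ, compared with 47.9 ± 1.49 CPM in OVX, and Hk2, the inducible hexokinase gene, at 7.90 ± 1.26 CPM in OVX+RJ, compared with 7.02 ± 0.727 CPM in OVX. Without OVX+RJ 1 the log2 fold change of Hk2 was 0.064, against 0.19 with it, and that of Bpgm was 0.051, against 0.093. Aldoc, the aldolase gene of astrocytes, had a log2 fold change of -0.024.

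Genes of glycogen metabolism held 3 of the 5 positive genes at an unadjusted edgeR p under 0.05, out of 18 tested. Over all genes 2.14% were higher at that p, and the lists were chosen with earlier results of these data known. Of the 18 genes 13 were positive, with a median of 0.028. This median was 0.060 without OVX+RJ 1. Ppp1r3c, a subunit that directs protein phosphatase 1 to glycogen, was at 50.8, 52.7 and 47.0 CPM in OVX+RJ 1, 2 and 3, against 41.4, 44.3 and 40.5 CPM in OVX 1, 2 and 3. The groups did not overlap, and the log2 fold change was 0.27 (SE 0.078, adjusted p = 0.986 by edgeR). Ppp1r3d, a related subunit, was at 7.43 ± 1.66 CPM in OVX+RJ, compared with 5.56 ± 0.339 CPM in OVX. OVX+RJ 1 alone was at 9.33 CPM, and without it the log2 fold change of Ppp1r3d was 0.22, against 0.43 with it. Pgm2l1, which makes glucose 1,6-bisphosphate, was at 581 ± 26.4 CPM in OVX+RJ, compared with 532 ± 32.5 CPM in OVX.

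Of 16 hypoxia factors and targets 11 were positive, with a median of 0.070. Hif1a, the oxygen-regulated subunit of HIF-1, was at 94.9, 97.6 and 90.0 CPM in OVX+RJ, against 89.6, 78.3 and 87.1 CPM in OVX. Its groups narrowly did not overlap, and the log2 fold change was 0.16 at an unadjusted edgeR p of 0.0489. Vegfa, a target of HIF-1, was at 48.2 ± 5.10 CPM in OVX+RJ, compared with 42.6 ± 1.06 CPM in OVX, with overlapping groups and an unadjusted p of 0.0418. Epas1, which encodes the HIF-2 alpha subunit and was named after its values were seen, was lower without overlap, at 125, 112 and 119 CPM in OVX+RJ, against 127, 132 and 131 CPM in OVX, and its log2 fold change was -0.12 at an unadjusted p of 0.101. None of these passed the adjusted threshold. Hif1a and Vegfa were the 2 of the 16 genes higher at an unadjusted edgeR p under 0.05, against 2.14% of all genes. The groups did not overlap at 1 gene with OVX+RJ higher and 1 with it lower, against 4.53% and 5.95% of all genes. This list, too, was chosen with earlier results of these data known.

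Genes of pyruvate entry into mitochondria had 10 of 14 log2 fold changes positive and a median of 0.083. Pdk4, a kinase that inhibits pyruvate dehydrogenase, was at 11.5 ± 2.44 CPM in OVX+RJ, compared with 9.48 ± 1.01 CPM in OVX, and Pdha1, a catalytic subunit, was at 271 ± 5.31 CPM in OVX+RJ, compared with 257 ± 3.36 CPM in OVX. Without OVX+RJ 1, which alone was at 14.1 CPM, the log2 fold change of Pdk4 was 0.098, against 0.29 with it, and the median of this list was 0.045. The pentose phosphate pathway had 7 of 8 negative and a median of -0.054, with Tkt, the transketolase gene, at 97.3 ± 5.78 CPM in OVX+RJ, compared with 105 ± 7.51 CPM in OVX, and H6pd at a log2 fold change of -0.13.

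Of the other glucose transporters 6 were positive and 5 negative, with a median of 0.029, and Slc2a1, described above, was the one at an unadjusted p under 0.05. Without OVX+RJ 2 this median was -0.10. Of 7 other lactate shuttle genes 3 were positive and 4 negative, with a median of -0.018. Slc16a6, a related carrier, was at 13.9 ± 4.20 CPM in OVX+RJ, compared with 11.3 ± 0.789 CPM in OVX, with OVX+RJ 1 alone at 18.8 CPM, and its log2 fold change of 0.32 was 0.027 without that library. Ldhd, the D-lactate dehydrogenase gene, was at 8.43 ± 1.55 CPM in OVX+RJ, compared with 10.2 ± 1.26 CPM in OVX. Bsg, which encodes basigin, the chaperone of MCT1, was at 246 ± 11.4 CPM in OVX+RJ, compared with 251 ± 5.53 CPM in OVX, and Slc16a3 was at 1.62 ± 0.296 CPM in OVX+RJ, compared with 1.41 ± 0.393 CPM in OVX.

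Of 7 enzymes of fructose 2,6-bisphosphate turnover and gluconeogenesis 6 were negative, with a median of -0.023. Tigar, which breaks fructose 2,6-bisphosphate down, had a log2 fold change of 0.089 and Pck2 of -0.057. Of 10 genes of the cytosolic NADH shuttles 6 were positive, with a median of 0.0094. Gpd2, the mitochondrial glycerol phosphate dehydrogenase gene, was at 208 ± 2.67 CPM in OVX+RJ, compared with 198 ± 3.86 CPM in OVX, with groups that did not overlap, and Slc25a12 had a log2 fold change of 0.093, which was 0.021 without OVX+RJ 1.

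**Figure D5:**
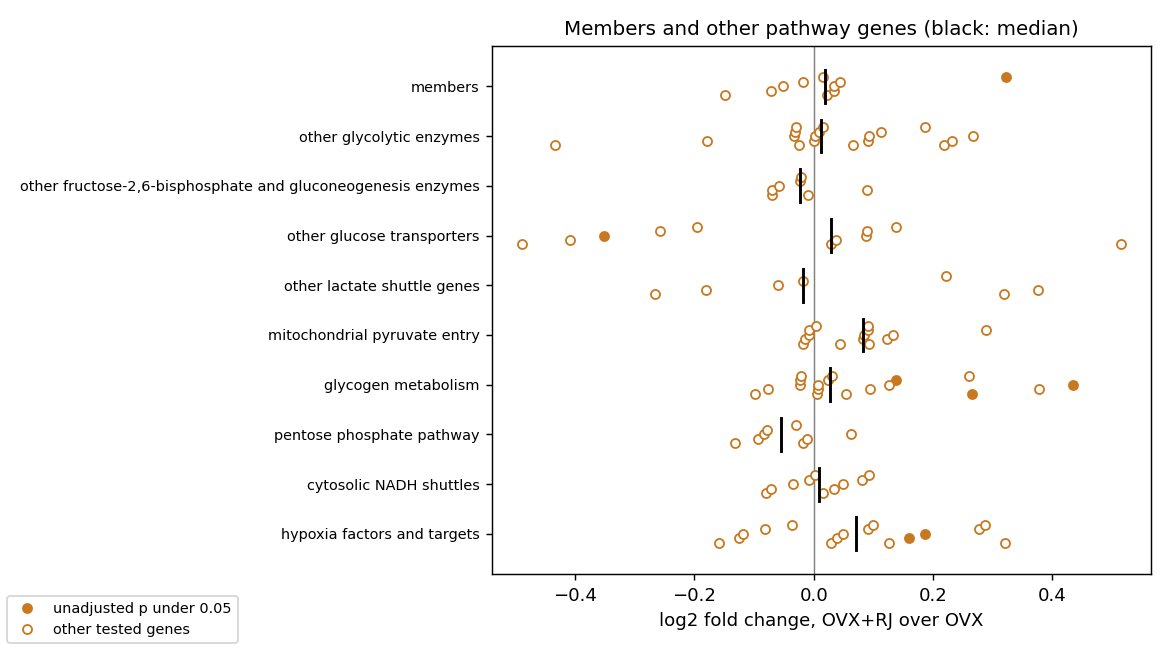
Log2 fold change, OVX+RJ over OVX, of each tested gene of the members and of the 9 other lists, with a black line at the median of each list and filled points at an unadjusted p under 0.05. The medians lie between -0.054 for the pentose phosphate pathway and 0.083 for mitochondrial pyruvate entry.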

How the data were processed

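Poly(A) RNA of mouse hippocampus was sequenced in 3 OVX+RJ and 3 OVX libraries, and per the labels' protocols a directional kit was used. The authors deposited expected counts per gene symbol, not scaled between libraries. The submitters' processing notes name build GRCm39 and, among tools, HISAT2 2.2.1 and StringTie 2.2.1. For the counter, its strand setting and the annotation release the sources used here give nothing. Totals ran from 34718596.5 to 58163785 counts. Non-whole values, at 51 features, were rounded.

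The rounded counts were tested with edgeR 4.0.16 in R 4.3.3 (filterByExpr, TMM, glmQLFTest, Benjamini-Hochberg over 18629 genes, threshold 0.05). Standard errors and 95% intervals came from limma 3.58.1 on log2 CPM (prior count 2). Ratios were compared by exact permutation, and the test was checked on simulated data. Exon lengths came from GENCODE M21 and windows from RefSeq, both GRCm38, matched by symbol.

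Members and lists were chosen with earlier results of these data known. Besides the members, the text names list genes at an unadjusted p under 0.05, otherwise up to 2 with the lowest p per list, and Slc2a1, Slc16a3, Bsg, Gapdh and Aldoc. For the 3 members that varied most, the tested gene with the most similar profile was also found, and the one for Slc16a7 is not reported here. Genes overlapping members were named after their values were seen. Alternatives were DESeq2 1.42.0, limma-voom, 3 scalings, 2 filters, the replicate number as a block, robust empirical Bayes and each library left out. Nothing says that replicate numbers pair the mice.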

Additional observations from a re-analysis of the deposited data

How the results depend on the processing

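With edgeR's test over all genes, 0 genes were called higher and 0 lower. DESeq2 called 10 higher and 3 lower, robust empirical Bayes 2 higher and 1 lower, and the replicate number as a block 1 higher and 0 lower. With each library left out in turn the counts ran from 0 to 7 higher, with 7 reached without OVX+RJ 2, and from 0 to 1 lower. No member was among the genes called under any of these. Deviations of same-numbered libraries from their group means were nearly uncorrelated across genes, at 0.046, -0.0024 and 0.0031. A pairing with little effect on RNA would give such values too, so they do not settle whether the numbers pair the mice.

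Under the 9 alternatives that keep all libraries, every member kept its sign. Slc16a1 had an unadjusted p under 0.05 in all 16 fits. These fits reuse the same libraries and are not independent. Genes under 0.05 numbered from 605 of 14826 tested (mean of at least 50 counts) to 1118 of 19027 (without OVX+RJ 2). The adjusted p of Slc16a1 was at least 0.445 in every fit. Its log2 fold change lay between 0.31 and 0.33 with all libraries and between 0.26 and 0.399 with one left out, and under the replicate block it was 0.32. With one library left out the ranges crossed 0 for 7 members: Slc2a3 from -0.011 to 0.079, Hk1 from -0.0039 to 0.095, Pfkm from -0.023 to 0.084, Pfkfb3 from -0.076 to 0.14, Pkm from -0.0027 to 0.055, Ldha from -0.053 to 0.028 and Slc16a7 from -0.65 to 0.24. The ratio difference of Ldha to Ldhb ran from -0.027 to 0.066 and that of Slc16a1 to Slc16a7 from -0.089 to 1.01. List medians ran from -0.012 to 0.042 for the members, from -0.0095 to 0.0495 for other glycolytic enzymes, from -0.058 to 0.025 for fructose 2,6-bisphosphate turnover and gluconeogenesis, from -0.022 to 0.051 for other lactate shuttle genes, from -0.0090 to 0.041 for NADH shuttles, from -0.066 to -0.028 for the pentose phosphate pathway, from -0.10 to 0.029 for other glucose transporters, from 0.045 to 0.089 for mitochondrial pyruvate entry, from 0.020 to 0.060 for glycogen metabolism and from 0.042 to 0.12 for hypoxia factors. The cause of these moves was not tested, and each such fit also held fewer samples. With 3 libraries a group, the 95% interval of a member's difference from limma was narrowest for Pkm, from -0.097 to 0.14, and widest for Slc16a7, from -1.24 to 1.08.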

Other observations

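Gapdh, the glyceraldehyde 3-phosphate dehydrogenase gene often used as a reference, was uneven between libraries. It was at 97.3, 31.1 and 28.2 CPM in OVX+RJ 1, 2 and 3, against 66.8, 119 and 28.8 CPM in OVX 1, 2 and 3, a log2 fold change of -0.43 (SE 0.50, adjusted p = 0.986 by edgeR). Per kb of exon its mean was 14.96 CPM, against 169 CPM for Aldoa, the aldolase that makes its substrate. Features named as Gapdh pseudogenes were steadier: Gapdh-ps15 stood at 24.9 to 25.2 CPM in OVX+RJ and 24.9 to 29.0 CPM in OVX, and Gapdh-ps16 at 19.7 to 20.3 CPM in OVX+RJ and 19.7 to 21.99 CPM in OVX. The sources used here do not say how reads that align to several copies were counted, so the Gapdh row is uncertain, and the part of such reads in these values was not tested.

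The log2 fold changes of the other abundant glycolytic enzyme genes, Gpi1, Pfkl, Aldoa, Aldoc, Tpi1, Pgk1, Pgam1, Eno1 and Eno2, named after their values were seen, lay between -0.033 (Eno1) and 0.067 (Pgk1), with overlapping groups at each.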
